A study of Mus musculus with 2 samples.

Results

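The genes described here are 10 transcripts that mark endothelial cells, the cells that line blood and lymph vessels. They were chosen by name, as receptors and junction or surface proteins of endothelium, with earlier results of these data known, and all 10 had a row among the 25810 genes with a symbol in both libraries. RNA was sequenced from mammary cells of wild type (WT) and *Igfbp7-/-* mice on lactation day 3, with 1 library for each genotype. Inguinal glands of both genotypes were dissociated, cells with lineage antigens were removed with magnetic beads, and poly(A) RNA was sequenced on a SOLiD instrument. The *Igfbp7-/-* allele lacks the first coding exon in the germ line, so that endothelium lacks it as well as epithelium. The sample labels give C57BL/6 as the background of both groups, whereas the methods give CD1 for the knockout. The age of the females and the number of animals behind each library were not given in the sources used here.

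Vessels of the lactating gland form a dense capillary bed around the alveoli and supply the substrates of milk. Endothelial cells hold together through adherens junctions built on VE-cadherin and tight junctions built on claudin-5. They sense growth factors through VEGF receptors and through Tie2, the receptor for angiopoietins. CD31, the product of *Pecam1*, is the antigen most often used to find or remove these cells. *Igfbp7* itself encodes a secreted protein that is known for its high expression in vessel walls.

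The methods name CD31, with CD45 and Ter119, as the antigens of the depletion, whereas the labels print CD35 in place of CD31. The transcripts described below are thus those left after a step meant to remove their source, which the methods describe as checked by flow cytometry for the same antigens and found nearly complete. A value of that check for each library was not given in the sources used here. Levels are deposited as RPM, reads per 1000000 mapped reads, so that 1 read equals 0.0291 RPM (WT) or 0.0286 RPM (*Igfbp7-/-*). Listed genes took 82.37% of 34327854 mapped reads in WT and 72.32% of 35016847 in *Igfbp7-/-*. The deleted gene was counted 5224 times in WT and 37 times in the knockout, as the labels would have it. Epithelial markers were present in both libraries, at 88135 and 34785 RPM summed over 10 luminal and alveolar genes, most of it the milk protein genes *Csn2*, *Csn3* and *Wap*. With 1 library per genotype no difference has a replicate check, so no p-value is given, and every interval is a 95% exact interval on read pairs that covers counting error only.

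Endothelial transcripts were lower in the *Igfbp7-/-* library. The 10 genes together summed to 1555 RPM in WT but to 498.3 RPM in the knockout, which is 3.12 times less (log2 ratio -1.64, interval -1.68 to -1.61). All 10 passed the minimum of 1 RPM in one library, 9 of them were lower by at least 1.5 times, and none was higher. Of the 14026 genes past this minimum, 23.0% were likewise lower and 21.4% likewise higher. The same 9 were lower at a ratio of 2, which 13.8% of genes reached downward and 9.64% upward. When counts were scaled to the reads on listed genes, *Kdr* came within a ratio of 2 (log2 ratio -0.89). All 10 also passed a minimum of 10 RPM, and among the 8201 such genes 20.4% were lower and 20.7% higher at 1.5 times, and 11.7% and 8.45% at 2 times. The median log2 ratio of the 10 genes was -1.65, against 0.03 for all 14026 genes. *Tek* was the gene that stayed within 1.5 times. In bulk RNA, fewer endothelial cells and less of these transcripts per cell cannot be told apart.

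**Figure D1:**
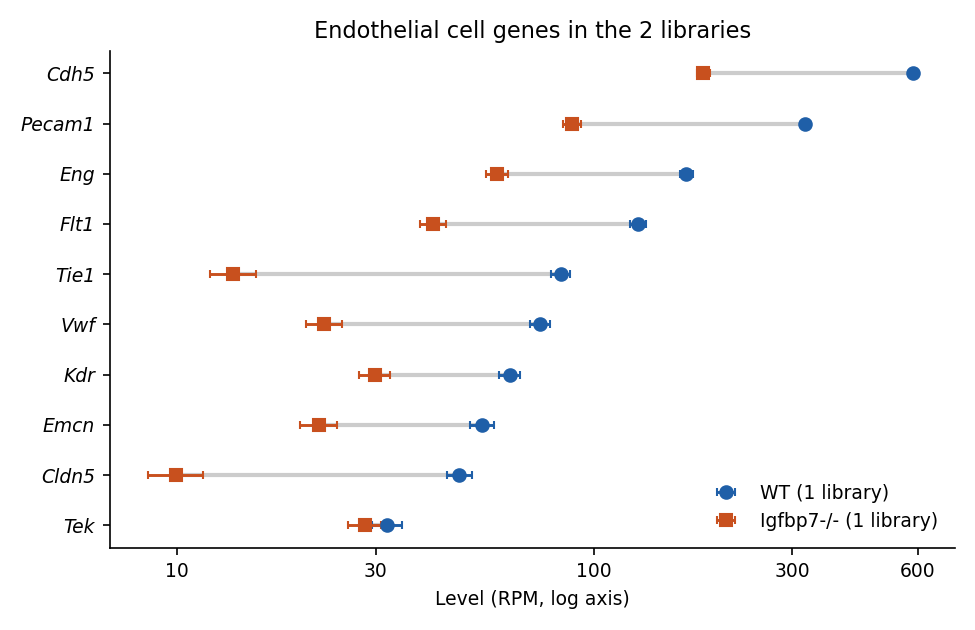
Level of each endothelial gene in the WT library (circles) and the *Igfbp7-/-* library (squares), in RPM on a log axis, with 95% exact Poisson intervals for counting error. The *Igfbp7-/-* value lies to the left of the WT value for 9 genes with no overlap of intervals, from 583.7 against 183.5 RPM for *Cdh5* to 47.6 against 9.94 RPM for *Cldn5*, whereas the intervals of *Tek* overlap.

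*Cdh5* encodes VE-cadherin, the adhesion protein of endothelial adherens junctions, and lies on chromosome 8 (chr8:106625525-106668402, plus strand, NCBIM37 build). WT held 20038 of its reads, or 583.7 RPM, against 6426, or 183.5 RPM, in the knockout (log2 ratio -1.67, -1.73 to -1.61). It had the most reads of the 10 genes, and the highest level per length, in both libraries. *Pecam1*, on chromosome 11 (chr11:106515531-106611942, minus strand), encodes CD31, an immunoglobulin family protein of the lateral endothelial border that platelets and some leukocytes carry as well. Its 11072 reads in WT (322.5 RPM) compared with 3113 in the knockout (88.9 RPM), and the log2 ratio was -1.86 (-1.94 to -1.78). The transcript of the depletion antigen was thus well above detection in both libraries. *Cldn5*, on chromosome 16 (chr16:18776940-18778353, plus strand), encodes claudin-5, which seals endothelial tight junctions. With 1634 reads in WT (47.6 RPM) and 348 in the knockout (9.94 RPM), it was 4.75 times less abundant (log2 ratio -2.25, -2.50 to -2.02). Relative to *Cdh5*, *Cldn5* was also lower, with a ratio of RPKM (RPM per kilobase) of 0.231 in WT and 0.153 in *Igfbp7-/-* (log2 change -0.59, -0.84 to -0.35). The ratio of *Pecam1* to *Cdh5* moved less, from 0.669 to 0.587 (log2 change -0.19, -0.29 to -0.09). Such ratios within a library do not depend on how the library is scaled.

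*Flt1* and *Kdr* encode VEGF receptors 1 and 2, of which the first binds VEGF tightly and signals weakly and the second carries most of the growth signal. Both lie on the minus strand of chromosome 5, *Kdr* at chr5:76328852-76374483 and *Flt1* at chr5:148373180-148537587. For *Flt1*, 4391 reads in WT (127.9 RPM) stood against 1442 in the knockout (41.2 RPM), so the log2 ratio was -1.63 (-1.76 to -1.51). *Kdr* gave 2157 WT reads (62.8 RPM) and 1043 knockout reads (29.8 RPM), and its log2 ratio was -1.07 (-1.23 to -0.93). *Kdr* was thus lower by 2.11 times and *Flt1* by 3.10 times. The ratio of *Flt1* to *Kdr* in RPKM was 1.77 in WT and 1.20 in *Igfbp7-/-* (log2 change -0.56, -0.75 to -0.36). *Eng* encodes endoglin, a co-receptor for TGF-beta family ligands in endothelium that macrophages and stromal cells can carry too (chr2:32502115-32538189, plus strand). Its level was 166.8 RPM in WT, from 5726 reads, and 58.7 RPM in the knockout, from 2055 reads (log2 ratio -1.51, -1.61 to -1.40).

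The Tie receptor genes stood at opposite ends of the group. *Tie1* encodes the orphan receptor that pairs with the product of *Tek*, and *Tek* encodes Tie2, which binds the angiopoietins and keeps vessels quiescent. Both lie on chromosome 4, *Tie1* at chr4:118143796-118162666 on the minus strand and *Tek* at chr4:94405980-94541667 on the plus strand. *Tie1* was at 83.3 RPM in WT, from 2859 reads, and at 13.7 RPM in the knockout, from 478 reads. Its log2 ratio of -2.60 (-2.81 to -2.41) was the lowest of the 10. Of all 14026 genes, 1.85% had a lower ratio than *Tie1*. *Tek* was at 31.9 RPM in WT, from 1096 reads, and at 28.2 RPM in the knockout, from 989 reads. Its log2 ratio was -0.18 (-0.36 to -0.0003), and the sign turned, to 0.01, when counts were scaled to the reads on listed genes. In RPKM *Tie1* was 3.13 times the level of *Tek* in WT and 0.579 times its level in *Igfbp7-/-*. The log2 change of this ratio was -2.43 (-2.70 to -2.16), the widest of the 5 pairs compared. That rank follows from the choice of pair, which joins the lowest and the highest log2 ratio of the 10.

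The bases before the annotated start of these receptors and of *Cldn5* are given because *Tie1* and *Cldn5* had the lowest ratios of the group and *Tek* the highest. Each window holds the 250 bases upstream of the RefSeq start (GRCm38.p6 build), 5′ to 3′ on the strand of the gene, and capitals mark the letters GGAA or their complement TTCC, the core of sites for ETS factors, which are known regulators of endothelial genes.
Tie1: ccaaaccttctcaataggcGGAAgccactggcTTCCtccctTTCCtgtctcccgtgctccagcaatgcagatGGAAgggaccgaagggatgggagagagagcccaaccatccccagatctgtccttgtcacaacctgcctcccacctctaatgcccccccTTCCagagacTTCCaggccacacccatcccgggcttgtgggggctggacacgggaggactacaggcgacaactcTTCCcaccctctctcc
Tek: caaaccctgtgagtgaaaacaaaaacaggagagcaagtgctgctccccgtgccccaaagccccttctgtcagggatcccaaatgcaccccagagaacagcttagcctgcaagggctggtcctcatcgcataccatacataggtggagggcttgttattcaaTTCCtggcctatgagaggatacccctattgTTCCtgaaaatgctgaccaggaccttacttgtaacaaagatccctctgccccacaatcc
Cldn5: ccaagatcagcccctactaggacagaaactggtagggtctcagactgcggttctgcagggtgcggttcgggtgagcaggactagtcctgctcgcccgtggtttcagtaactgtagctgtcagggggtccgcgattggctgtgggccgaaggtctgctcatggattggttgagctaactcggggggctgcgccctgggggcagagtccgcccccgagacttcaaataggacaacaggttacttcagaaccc
The *Tie1* window is chr4:118489850-118490099 on the minus strand, that of *Tek* is chr4:94739039-94739288 on the plus strand, and that of *Cldn5* is chr16:18776597-18776846 on the plus strand. GGAA, read on both strands, was found 7 times before *Tie1*, 2 times before *Tek* and 0 times before *Cldn5*. Before *Kdr*, *Flt1*, *Eng* and *Emcn* it was found 4, 4, 3 and 4 times. The mean over the 32851 promoter windows used, which did not cover every chromosome, was 2.91. Of the 10 genes, 7 had a promoter entry, and 6 of these 7 held GGAA, as did 93.4% of 32851 promoter windows of the same length. The longer forms AGGAAG and CGGAAG, which contain GGAA, were in 4 and 1 of the 7 windows and in 29.5% and 13.6% of the 32851 windows. *Tie1* held 1 match to each, *Flt1*, *Eng* and *Emcn* held 2 matches each to AGGAAG, and *Tek* and *Cldn5* held none. These letters describe the windows and were not tested for binding of any factor.

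Both remaining genes encode glycoproteins. *Vwf*, on chromosome 6 (chr6:125496792-125636697, plus strand), encodes von Willebrand factor, which endothelium stores and releases to hold platelets. WT had 74.3 RPM, from 2549 reads, and the knockout 22.5 RPM, from 789 reads (log2 ratio -1.72, -1.89 to -1.56). *Emcn*, on chromosome 3 (chr3:137004031-137095149, plus strand), encodes endomucin, a sialomucin of veins and capillaries. Its 1853 WT reads (54.0 RPM) stood against 766 in the knockout (21.9 RPM), for a log2 ratio of -1.30 (-1.48 to -1.13). Across the 9 genes that were lower, the log2 ratios ran from -2.60 for *Tie1* to -1.07 for *Kdr*, and the counting intervals of these extremes did not overlap.

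**Figure D2:**
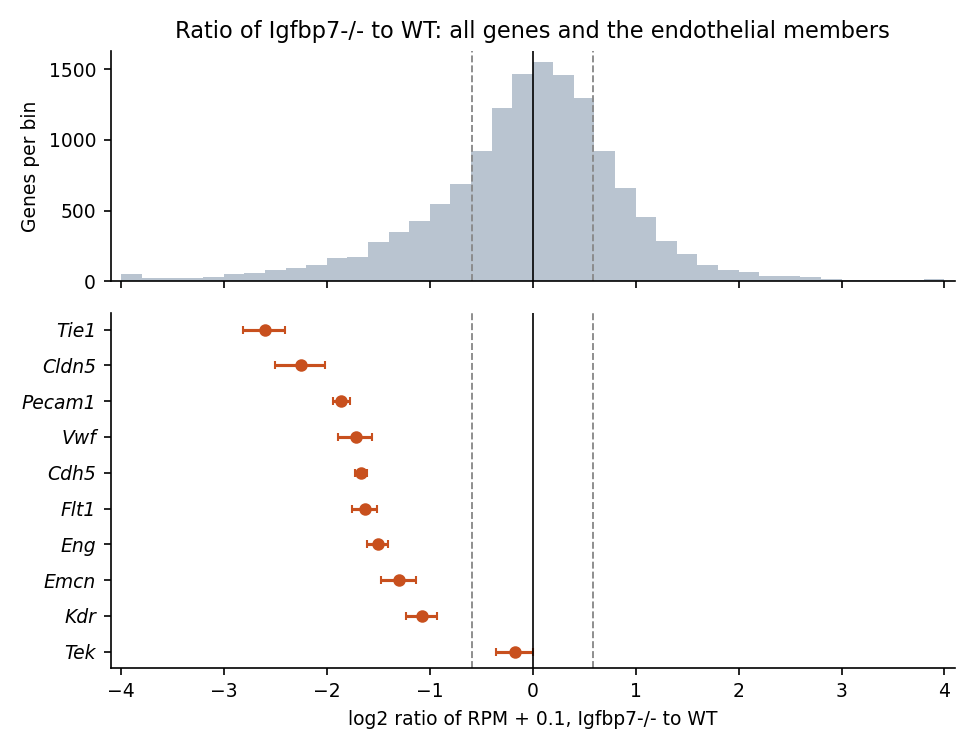
Upper panel, number of genes per bin of the log2 ratio of *Igfbp7-/-* to WT (RPM + 0.1) for the 14026 genes that passed the minimum, with the end bins holding all values beyond them; lower panel, the same ratio for each endothelial gene with its 95% counting interval. Dashed lines mark a ratio of 1.5 in either direction, and 9 of the 10 genes lie below the lower line, with *Tek* between the lines at -0.18.

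Per length, *Cdh5* (145.8 RPKM) and *Pecam1* (97.6 RPKM) led the order in WT, followed by *Eng* (46.7 RPKM), *Emcn* (36.6 RPKM) and *Cldn5* (33.7 RPKM). *Tie1* (21.4 RPKM), *Flt1* (20.4 RPKM), *Kdr* (11.5 RPKM), *Vwf* (8.42 RPKM) and *Tek* (6.86 RPKM) completed it. The counting intervals of *Emcn* and *Cldn5* overlapped, as did those of *Tie1* and *Flt1*. In *Igfbp7-/-* the same 4 genes led, *Cdh5* at 45.8 RPKM, *Pecam1* at 26.9 RPKM, *Eng* at 16.4 RPKM and *Emcn* at 14.8 RPKM, with overlap between *Eng* and *Emcn*. *Cldn5* (7.03 RPKM), *Flt1* (6.56 RPKM), *Tek* (6.07 RPKM) and *Kdr* (5.45 RPKM) came next, and each overlapped its neighbour in this run. *Tek* thereby went from the tenth place to the seventh and *Tie1* from the sixth to the ninth at 3.52 RPKM, ahead of *Vwf* at 2.56 RPKM. In WT, *Cdh5* had a higher RPKM than 97.3% of the 14026 genes and *Pecam1* than 96.2%. In *Igfbp7-/-* they were above 92.5% and 87.2%.

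**Figure D3:**
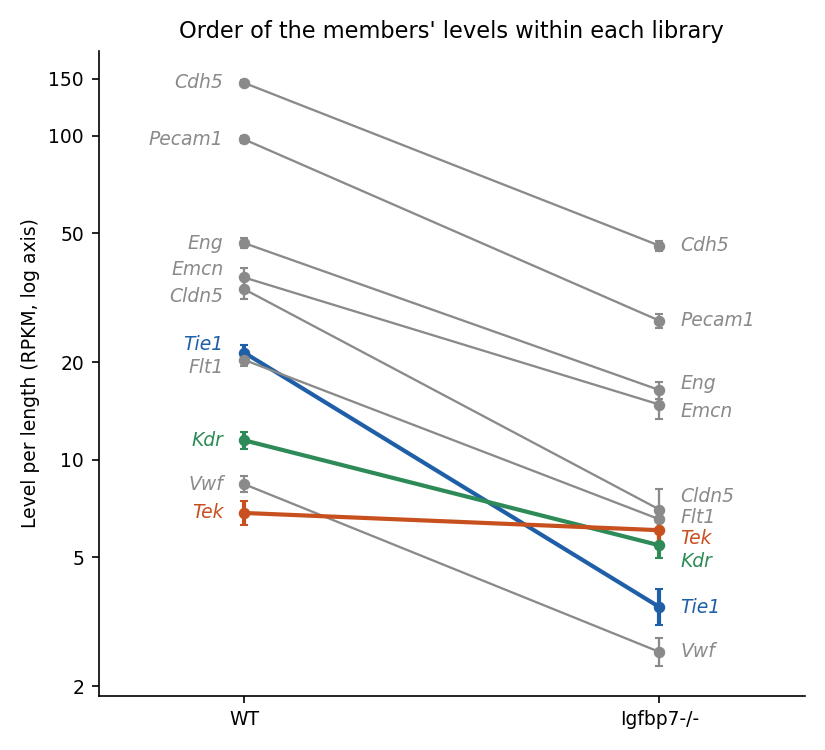
Level per length of each endothelial gene (RPKM, log axis) in the WT library on the left and the *Igfbp7-/-* library on the right, joined by a line that is coloured for *Tie1*, *Kdr* and *Tek*, with 95% exact Poisson intervals. *Tie1* drops from 21.4 to 3.52 RPKM and crosses *Tek*, which goes from 6.86 to 6.07 RPKM and has the flattest line.

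Shares of the group's own reads do not depend on scaling. They show differences among the 10 genes only, since a fall common to all 10 leaves them unchanged. *Cdh5* took 37.5% of the reads of the 10 genes in WT (37.0 to 38.1%) and 36.8% in *Igfbp7-/-* (35.8 to 37.9%), so its share did not differ beyond counting error. *Pecam1* took 20.7% and 17.8%, and the intervals of these shares did not overlap. *Tek* rose from 2.05% (1.89 to 2.23%) to 5.67% (5.19 to 6.17%) of the group's reads. Its own level did not rise, at 31.9 RPM in WT and 28.2 RPM in *Igfbp7-/-*. *Tie1* had 5.36% (5.09 to 5.63%) in WT and 2.74% (2.41 to 3.10%) in *Igfbp7-/-*.

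A wider list of 40 other genes, chosen as genes of vessel endothelium though other cell types express some of them too, gave a like picture. Of these, 36 (90.0%) were lower in *Igfbp7-/-* by at least 1.5 times and none was higher, with a median log2 ratio of -1.49 and a summed level of 3883 RPM (WT) and 1653 RPM (knockout). The genes with the most reads were *Tm4sf1*, a tetraspanin-like surface protein that epithelium can carry too (604.1 and 246.2 RPM), *Cd93*, an adhesion receptor (502.3 and 159.4 RPM), and *Gpr116*, an adhesion G protein-coupled receptor (499.2 and 196.5 RPM). The lowest ratios were those of *Icam2*, an adhesion ligand for leukocytes (24.0 and 3.23 RPM; log2 ratio -2.86), *Nos3*, the endothelial nitric oxide synthase (550 and 85 reads; -2.67), and *Gpihbp1*, which holds lipoprotein lipase on the capillary wall (24.8 and 3.83 RPM; -2.66). The 4 genes within 1.5 times were *Podxl* (63.7 and 93.6 RPM; 0.55), *Thsd1* (2.53 and 2.23 RPM; -0.18), *Rhoj* (178.5 and 149.0 RPM; -0.26) and *Cd34* (164.7 and 116.5 RPM; -0.50), the last named after its value was seen. The sign of *Thsd1* turned when counts were scaled to listed reads, and *Podxl*, a sialomucin also found on epithelium, then passed 1.5 times upward.

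The genes of the wider list whose ratio was nearest to the median of the 10, over these 2 libraries, were *Cd93* (-1.66), *Ecscr* (-1.64), *Clec14a* (-1.71), *Sox7* (-1.59) and *Esam* (-1.59). *Esam* encodes an adhesion molecule of endothelial tight junctions and stood at 121.6 and 40.4 RPM. The transcription factors on the list, looked up after the values were seen, were all lower by at least 1.5 times. *Erg*, an ETS factor that maintains endothelial identity, had a log2 ratio of -2.13 (976 and 224 reads). The SoxF genes *Sox7*, *Sox17* and *Sox18* had ratios of -1.59, -1.06 and -0.98, and *Tal1*, which blood progenitors share, had a ratio of -1.88.

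In the lists chosen for types of vessel most genes were lower too, against 23.0% of all 14026 genes. In the arterial list 5 of 7 genes were lower and none higher (median log2 ratio -1.32), with *Sema3g* at 15.7 and 6.23 RPM and *Gja4*, a gap junction protein, at 11.9 and 6.77 RPM in WT and knockout. *Efnb2*, the ligand that marks arteries, had 21.3 and 24.1 RPM, and *Hey1*, also within 1.5 times, had 4.08 and 3.57 RPM. Of 7 venous or cytokine-activated genes, 6 were lower (5 when counts were scaled to listed reads) and none was higher (median -1.25). These included *Icam1* (1778 and 747.6 RPM), *Vcam1* (535.0 and 111.3 RPM) and *Selp*, the P-selectin gene (464.9 and 166.8 RPM). *Icam1* and *Vcam1* are not restricted to endothelium. *Sele*, the E-selectin gene and the exception, had 34.2 and 37.8 RPM. Of 5 lymphatic genes that passed the minimum, 4 were lower, among them *Pdpn* (111.8 and 38.2 RPM), which myoepithelial cells and fibroblasts share, *Lyve1* (24.6 and 14.1 RPM) and *Flt4*, the VEGF-C receptor (538 and 196 reads). *Prox1*, the factor that defines lymphatic fate, had 3.55 and 4.28 RPM, and *Ccl21a*, which did not pass, had 0 and 1 reads.

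The ligands and binding partners of the 10 proteins did not share this shift as a list. Of 24 such genes, 20 passed the minimum, 5 were lower and 2 were higher, with a median log2 ratio of -0.13, which turned to 0.06, with 3 higher, when counts were scaled to listed reads. The 5 that were lower were *Acvrl1*, the ALK1 receptor that endoglin assists (68.8 and 27.7 RPM; -1.31), the VEGF co-receptors *Nrp2* (162.1 and 68.4 RPM; -1.24) and *Nrp1* (56.2 and 31.2 RPM; -0.85), the Tie2 ligand *Angpt2* (115.5 and 53.2 RPM; -1.12), and *Pgf*, a ligand of VEGF receptor 1 (84.6 and 40.2 RPM; -1.07). *Ocln*, a tight junction gene of epithelium as well as endothelium (18.6 and 54.9 RPM; 1.56), and *Bmpr2* (35.9 and 62.5 RPM; 0.80) were the 2 that were higher. *Vegfa*, the main ligand of both VEGF receptors, had 108.9 and 81.8 RPM (-0.41), and *Angpt1*, the Tie2 agonist, had 17.4 and 13.2 RPM (-0.40). The partners with the most reads were *Ctnna1* (454.1 and 511.3 RPM), *Ctnnb1* (360.8 and 285.1 RPM) and *Tgfbr2* (302.0 and 367.9 RPM), catenins and a receptor that most cell types express.

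**Figure D4:**
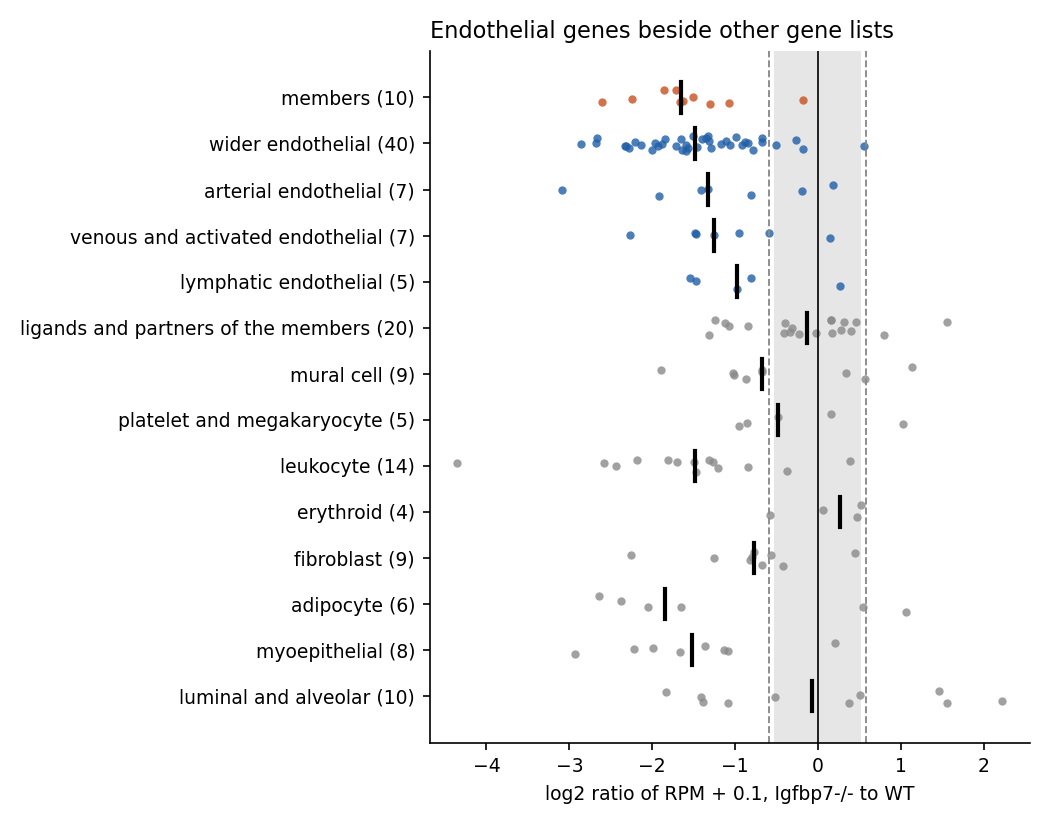
Log2 ratio of *Igfbp7-/-* to WT (RPM + 0.1) for each gene that passed the minimum, by list, with the number of genes in brackets and the 10 endothelial genes in the top row (members); black bars are list medians, the grey band holds the middle of all genes between the quartiles -0.52 and 0.51, and dashed lines mark a ratio of 1.5. The endothelial lists lie to the left of the band by their medians (-1.65 for the 10 genes), and so do the leukocyte (-1.49), myoepithelial (-1.51), adipocyte (-1.85), fibroblast (-0.78) and mural (-0.68) lists, while the ligand and partner list (-0.13) lies within it.

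Markers of several other cell types were mostly lower beside the endothelial genes, whereas the erythroid list was not. The platelet list and the luminal and alveolar list were mixed, the latter with milk protein genes lower and keratin genes higher. Of all 14026 genes, 23.0% were lower and 21.4% higher by at least 1.5 times. The leukocyte list was lower for 12 of 14 genes and none was higher, with summed levels of 283.6 RPM in the WT library and 106.0 RPM in the knockout. It holds the CD45 gene *Ptprc* (43.5 and 18.1 RPM), *Laptm5* (72.7 and 20.7 RPM) and *Lyz2*, the lysozyme gene of myeloid cells (66.9 and 24.1 RPM), and no leukocyte marker was at 0 in either library. The myoepithelial list was lower for 7 of 8 genes (3284 and 1070 RPM in sum), with the contractile genes *Acta2* (1052 and 226.7 RPM) and *Myh11* (883.0 and 343.5 RPM), which vascular smooth muscle shares, and the basal keratin gene *Krt5* (579.3 and 182.3 RPM).

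The fibroblast list was lower for 6 of 9 genes (9791 and 5015 RPM in sum), or 5 of 9 when counts were scaled to listed reads. Its collagen genes *Col3a1*, *Col1a1* and *Col1a2* had log2 ratios of -1.26, -0.78 and -0.80. In the adipocyte list 4 of 6 genes were lower and 1 was higher, or 5 of 7 and 2 when counts were scaled to listed reads. The summed level over its 8 genes was 583.5 and 209.4 RPM. Most of that sum was *Fabp4*, which capillary endothelium shares (543.5 and 173.4 RPM), while the leptin gene *Lep* was the higher one (8.04 and 16.8 RPM) and the lipase gene *Lipe* had 10.5 and 15.5 RPM. Mural cells, which wrap the vessels, had 6 of 9 genes lower and 1 higher, or 4 lower and 2 higher when counts were scaled to listed reads. *Rgs5* had 71.3 and 35.3 RPM, *Pdgfrb* 50.7 and 64.2 RPM, and *Anpep*, which is not restricted to mural cells, 31.5 and 69.2 RPM.

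Platelet genes, taken because platelets hold *Pecam1* and *Vwf*, went both ways, with 2 of 5 lower and 1 higher. The integrin gene *Itgb3*, which endothelium expresses too, was lower (275.6 and 152.3 RPM), *Gp1bb* was higher (14.9 and 30.6 RPM), and *Itga2b* had 1.72 and 1.20 RPM. *Gp6* was at 0 in both libraries. The erythroid list had 0 of 4 genes lower and 0 higher, and 3 of 5 higher when counts were scaled to listed reads. Its globin genes *Hbb-b1*, *Hba-a1* and *Hba-a2* had log2 ratios of 0.06, 0.52 and 0.47, and near-identical globin copies may share reads. *Alas2* had -0.58, and was the 1 of 4 genes lower by at least 1.5 times when ratios were centred on the median of all genes. In the luminal and alveolar list 4 of 10 genes were lower, all of them milk protein genes, among them *Csn2* (-1.41), *Csn3* (-1.38) and *Wap* (-1.83). The 3 that were higher were the keratin genes *Krt8* (1.56), *Krt18* (2.23) and *Krt19* (1.47), and 4 were higher when counts were scaled to listed reads. The part of these cell types in the endothelial values was not tested.

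*Cr2*, the mouse gene for CD35, the antigen that the labels print, had 15 and 4 reads, below the minimum. The difference in the endothelial genes cannot be told apart from a difference between the libraries in how many CD31-positive cells the depletion removed.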

How the data were processed

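The authors deposited for each library raw read counts per gene, the RPM, which is the count divided by a fixed total of mapped reads per library, and the RPKM, which is the deposited RPM divided by a gene length that they chose. The submitters' processing notes list Bowtie 0.12.3, SAMtools 0.1.15 and the mm9 build. The methods describe paired-end reads, at most a few mismatches, removal of mitochondrial, ribosomal and small nuclear RNA, and a human reference. The deposited values nevertheless list mouse genes and 4 ribosomal RNA rows, which held 2.95% (WT) and 3.15% (*Igfbp7-/-*) of mapped reads. Gene annotation and the treatment of reads with several positions were not given in the sources used here. Reads outside the listed genes count in the RPM total, so a larger share of them lowers every RPM of that library.

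Groups were taken from the genotype labels. Blank counts stand beside an RPM of 0 and were read as 0. The 50 rows without a symbol (at most 0.067% of listed reads) were left out. Log2 ratios were computed from the deposited RPM + 0.1, for genes that reached 1 RPM in either library, and a gene was called at 1.5 times. The study used this fold together with a quality and a p-value threshold, which were not applied here. Low counts were mostly even (75.8% and 74.1% of counts from 1 to 20), so intervals were computed on read pairs (count divided by 2, rounded down): Clopper-Pearson for ratios and shares, exact Poisson for RPM and RPKM, and the conditional odds ratio for 2 genes. They cover counting error only, and a floor of 3 reads equals 0.0874 RPM (WT) or 0.0857 RPM (*Igfbp7-/-*). Gene positions are from the NCBIM37 annotation, which is mm9, and promoter bases from RefSeq on GRCm38.p6.

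The members and all gene lists were chosen with earlier results of these data known. The genes named were the 10 members, the 3 with the most reads in each list, and in the wider endothelial list the 3 highest, the 3 lowest and the 5 nearest the members' median, with *Igfbp7* and the genes of the depletion antigens; others were chosen after their values were seen. Of the erythroid list 2 symbols had no row and were not analysed here. Alternatives were other pseudocounts, minimums, thresholds and scalings, among them TMM factors from edgeR 4.0.16. The calculations were tested on simulated read pairs drawn with the counting error that the intervals assume. Such a test checks the code and does not cover variation between animals. Python 3.11.15, numpy 2.4.6, pandas 2.3.3, scipy 1.17.1 and R 4.3.3 were used.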

Additional observations from a re-analysis of the deposited data

How the results depend on the processing

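The count of 9 of 10 endothelial genes lower and none higher was the same under all 12 alternatives, and the log2 ratios of these 9 stayed below 0 in each alternative that gave one. *Tek* stayed within 1.5 times, with a ratio below 0 in 8 of 10 alternatives and above 0 in 2, both scaled to listed reads (0.01, and 0.02 without ribosomal and small nuclear RNA, an alternative chosen after seeing the data). These scalings moved the median of all genes from 0.03 to 0.22 and 0.23, and the share of lower among called genes from 51.8% to 37.8% and 37.0%. The median of the 10 genes was then -1.46 and -1.45, their summed log2 ratio -1.45 and -1.44, the median of the wider list -1.30 and -1.29, and 1 gene of the wider list was higher in place of 0. Of the wider list, 36 genes were lower, and 34 and 33 under these scalings, where *Calcrl* and *Eltd1* and then also *Tspan18* came within 1.5 times. The count was 35 with RPKM, 31 with a minimum of 10 RPM and 29 at a ratio of 2. Scaling without the 20 highest genes gave -1.60 for the sum and 1 higher gene in the wider list. Leaving out each of the 10 genes in turn gave sums between -1.70 and -1.59. Over all genes, 3231 lower and 3006 higher became 5279 and 4741 with no minimum, 1672 and 1696 with a minimum of 10 RPM, and 1936 and 1352 at a ratio of 2, and 4582 were higher without ribosomal and small nuclear RNA.

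No paired analysis was possible because each genotype had 1 library, so leaving out a replicate was not possible. Variation between animals was not measured.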
